A study of Mus musculus with 18 samples.

Results

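The visual cycle genes described here are the 9 rows of the deposited mouse count table with the symbols Rpe65, Lrat, Rdh5, Rdh10, Rdh11, Rlbp1, Rgr, Rrh and Stra6, of 21859 rows in all. They were found by symbol, and all 9 were among the 15944 genes with enough counts to test. Bulk RNA of the retinal pigment epithelium (RPE), a pigmented layer that supports the photoreceptors it faces, was sequenced in 18 libraries: 7 from young mice (Young), 4 from aged mice (Old), 3 from aged mice that received AAV2-tTA (Old-Control) and 4 from aged mice that received AAV2-tTA;TRE-OSK (Old-OSK). AAV2 is a gene delivery vector made from an adeno-associated virus. The transactivator tTA, controlled by tetracyclines, drives the promoter TRE, and OSK stands for Oct4 (gene Pou5f1), Sox2 and Klf4. Ages, strain, sex, dose, route, time after the vector and the promoter that drives tTA are not given in the sources used here. No label says whether the libraries of a group came from separate animals, so the p-values measure the spread between libraries only.

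The visual cycle returns light-bleached chromophore to its active form. Photoreceptors release all-trans-retinol, the RPE stores it as retinyl esters, an isomerase makes cis-retinol from the esters, and dehydrogenases oxidise that to the cis-retinal that the opsins carry. Stra6 is a membrane receptor for retinol bound to its plasma carrier. Lrat makes the retinyl esters, and Rpe65 is the isomerase that uses them. Rdh5, Rdh10 and Rdh11 are retinol dehydrogenases, Rlbp1 (CRALBP) is the carrier of cis-retinoids, and Rgr and Rrh are opsin-family proteins of the RPE. Rgr and Rlbp1 are also known in Müller glia of the retina.

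Library totals ranged from 18104828 to 32348136 counts, and the lowest count of any visual cycle gene in any library was 1640. Pou5f1 lay between 50.1 and 97.4 CPM (counts scaled to a common library size) in Old-OSK and at or below 3.75 CPM in the other 14 libraries, and Sox2 between 70 and 115 CPM against at most 15.9. Klf4 lay between 155 and 432 CPM in Old-OSK, a range that also held Old replicate 4 at 216 CPM. A letter M stands in 6 library names (3 Young, 2 Old-Control, 1 Old-OSK, none in Old). Ddx3y, Uty, Kdm5d and Eif2s3y, which are Y-linked, summed to between 4040 and 5493 counts in those 6 libraries and to at most 93 in the other 12. All 12 RPE markers were detected in every group, although Best1 averaged only 1.21 CPM in Young. Old replicate 4 and Old-Control replicate 2 stood apart from their groups, with the lowest summed visual cycle level in each. Test results of the visual cycle genes that rest on them are given with and without them.

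On GRCm38 (GENCODE M21), Rpe65 lies at chr3:159599175-159625321 (plus strand), Lrat at chr3:82892579-82903973 (minus), Rrh at chr3:129804408-129822587 (minus) and Rdh10 at chr1:16105774-16133734 (plus). Rdh5 lies at chr10:128913593-128922888 (minus), Rdh11 at chr12:79174337-79192293 (minus), Rlbp1 at chr7:79374870-79387048 (minus), Rgr at chr14:37034909-37048964 (minus) and Stra6 at chr9:58063788-58153996 (plus). Exons of Rdh5 overlap those of Bloc1s1, so reads assigned to Rdh5 are uncertain in that stretch.

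RefSeq promoter windows (GRCm38.p6) were at hand for 8 of the 9 genes, in 12 windows. They were searched on both strands, over 250 bases before the start, for letters that RPE transcription factors are known to bind: TAATCC (OTX factors), CATGTG or CACGTG (the E-box forms bound by Mitf) and ACAAAG (SOX factors). The OTX letters stood before Rpe65 and Rgr, in 2 of the 12 windows, beside 6.25% of all 32851 windows. The E-box letters stood before Rpe65, Rlbp1 and Rdh11, in 3 of the 12, beside 17.6% of all windows. The SOX letters stood before Rlbp1, Rrh and Stra6, in 4 of the 12, beside 16.5%. Rpe65, Rgr and Rlbp1 are printed as examples that carry these letters, and Lrat as an example that held none of them. Rdh5 held none either. Its median Pearson correlation of log2 CPM with the other members was 0.96, beside 0.89 for Lrat. A link between these letters and how the genes varied was not tested. Each run is 220 bases read 5′ to 3′ on the gene's strand and ends 31 bases before the start, with capitals for the matched letters. The windows are chr3:159598931-159599150 for Rpe65, chr14:37049045-37049264 for Rgr, chr7:79387058-79387277 for Rlbp1 and chr3:82904005-82904224 for Lrat. A match is a description of the sequence only.
Rpe65: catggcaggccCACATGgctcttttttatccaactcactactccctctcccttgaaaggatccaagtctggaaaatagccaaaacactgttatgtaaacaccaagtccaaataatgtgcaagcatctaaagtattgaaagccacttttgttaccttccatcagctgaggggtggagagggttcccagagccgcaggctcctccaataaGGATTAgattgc
Rgr: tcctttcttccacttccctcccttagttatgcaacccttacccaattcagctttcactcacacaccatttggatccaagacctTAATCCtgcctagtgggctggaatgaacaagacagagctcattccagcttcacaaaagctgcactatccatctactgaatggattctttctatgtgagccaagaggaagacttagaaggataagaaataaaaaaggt
Rlbp1: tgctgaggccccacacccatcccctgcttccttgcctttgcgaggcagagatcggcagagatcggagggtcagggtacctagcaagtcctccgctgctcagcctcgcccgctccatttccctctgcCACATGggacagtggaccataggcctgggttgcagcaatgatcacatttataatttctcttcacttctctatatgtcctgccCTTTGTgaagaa
Lrat: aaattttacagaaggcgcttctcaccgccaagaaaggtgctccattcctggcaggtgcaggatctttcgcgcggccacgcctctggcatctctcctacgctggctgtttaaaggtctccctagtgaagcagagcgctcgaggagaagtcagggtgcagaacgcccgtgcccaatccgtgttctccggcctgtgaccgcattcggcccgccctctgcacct

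In Rpe65, GGATTA (the OTX letters on the opposite strand) lay 42 to 37 bases before the start and CACATG (an E-box form on the opposite strand) 239 to 234 bases before it. In Rlbp1, CACATG lay 124 to 119 bases and CTTTGT (the SOX letters on the opposite strand) 42 to 37 bases before the start. In Rgr, TAATCC lay 167 to 162 bases before the start.

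Together the 9 genes took 3.13% to 4.58% of all counts in Young, 2.1% to 3.7% in Old, 1.55% to 4.51% in Old-Control and 0.993% to 1.93% in Old-OSK. Per length, as CPM divided by the exon length in kilobases (RPKM), the Young mean was highest for Rgr at 3709 ± 722 (SD, n = 7), followed by Rpe65 at 2746 ± 604, Rlbp1 at 1750 ± 411 and Rdh5 at 1212 ± 256. Rdh10 averaged 897 ± 179 RPKM, Lrat 565 ± 115 and Stra6 305 ± 60.4. Rrh at 76.5 ± 12.6 RPKM and Rdh11 at 64.7 ± 11 RPKM were the lowest. Mean ± SD intervals overlapped between neighbours in this order from Rgr down to Rdh10 and between Rrh and Rdh11, and did not overlap between Rdh10 and Lrat, Lrat and Stra6, or Stra6 and Rrh. Among the 4 groups, the mean CPM of all 9 genes was highest in Young and lowest in Old-OSK, with Old and Old-Control between them.

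**Figure D1:**
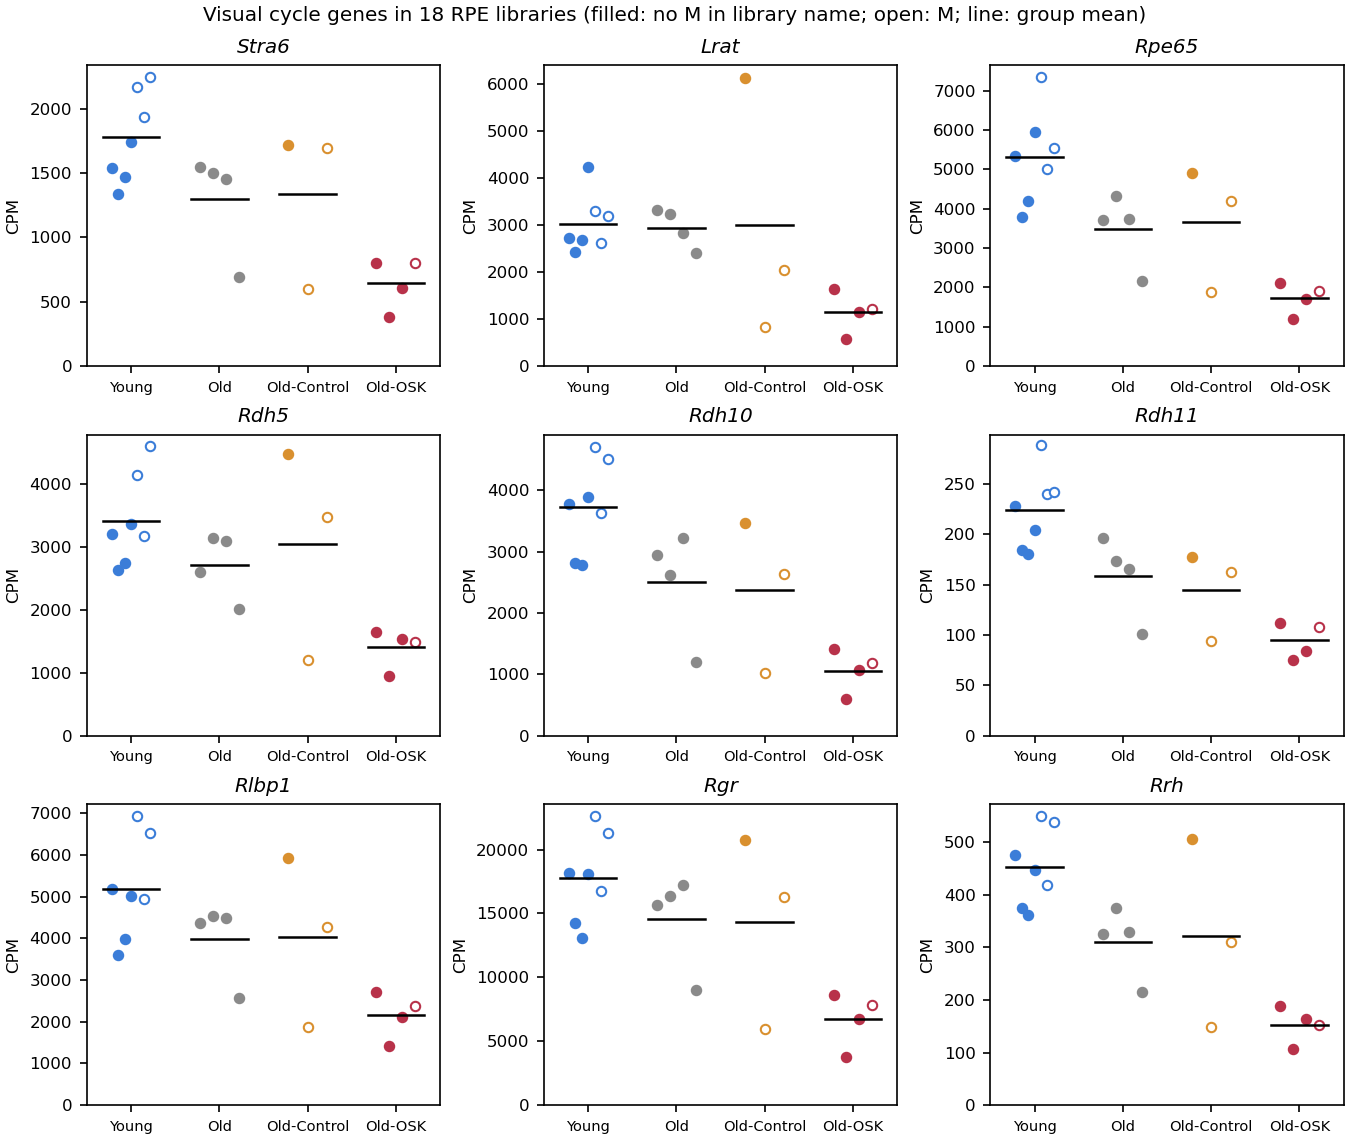
CPM of each visual cycle gene (vertical axis, linear from 0) in every library of the 4 groups (horizontal axis), with open points for libraries with M in their name and a line at the group mean. All 4 Old-OSK points lie below all 7 Young points in every panel, and 1 Old-Control library (replicate 2) sits within the Old-OSK range in every panel.

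Stra6, the retinol receptor, stood in Young between 1337 and 2244 CPM with a median of 1739. The Old libraries held 1545, 1502, 1457 and 696 CPM, the Old-Control libraries 1714, 603 and 1695 CPM, and the Old-OSK libraries 798, 383, 610 and 803 CPM. In Old and in Old-Control a single low library fell within the Old-OSK range while the others lay within the Young range.

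Lrat, which makes the retinyl ester store, stood in Young between 2427 and 4221 CPM (median 2733). In Old it was 3315, 3225, 2837 and 2397 CPM, a group mean of 2944 ± 419 (SD, n = 4) beside 3024 ± 613 (n = 7) in Young. Old-Control libraries held 6115, 822 and 2039 CPM, the widest spread of any member in any group (SD at 92.6% of the mean), and Old-OSK libraries 1645, 574, 1141 and 1219 CPM. Lrat was the member with the smallest difference between Old and Young.

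Rpe65, the isomerase, stood in Young between 3798 and 7341 CPM (median 5337). Old libraries held 3724, 4313, 3746 and 2171 CPM and Old-Control libraries 4915, 1892 and 4193 CPM. Old-OSK libraries held 2109, 1189, 1713 and 1919 CPM. Of the Old libraries, replicates 1, 3 and 4 lay below every Young library and replicate 2 did not.

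Of the retinol dehydrogenases, Rdh5 stood in Young between 2628 and 4596 CPM (median 3210), in Old at 2604, 3135, 3087 and 2013, in Old-Control at 4466, 1203 and 3469, and in Old-OSK at 1641, 946, 1534 and 1488. Rdh10 stood in Young between 2785 and 4704 CPM (median 3782), in Old at 2954, 2623, 3226 and 1199, in Old-Control at 3476, 1023 and 2631, and in Old-OSK at 1409, 594, 1068 and 1179. Rdh11 was far less abundant, with 180 to 288 CPM in Young (median 228), 196, 173, 165 and 101 in Old, 177, 94.3 and 162 in Old-Control, and 112, 75.4, 84.4 and 108 in Old-OSK. For all 3 enzymes the highest Old-OSK library lay below the lowest Young library, while Old-Control replicate 2 lay within the Old-OSK range.

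Rlbp1, the cis-retinoid carrier, stood in Young between 3604 and 6937 CPM (median 5013), in Old at 4355, 4541, 4495 and 2569, in Old-Control at 5935, 1863 and 4267, and in Old-OSK at 2722, 1418, 2123 and 2368. Rgr, the more abundant RPE opsin, stood in Young between 13109 and 22600 CPM (median 18056), in Old at 15660, 16345, 17253 and 8981, in Old-Control at 20780, 5936 and 16269, and in Old-OSK at 8639, 3778, 6709 and 7800. Rrh (peropsin) stood in Young between 361 and 550 CPM (median 448), in Old at 325, 374, 329 and 216, in Old-Control at 507, 148 and 311, and in Old-OSK at 189, 106, 163 and 152. Old replicate 4 and Old-Control replicate 2 were the low libraries of their groups for all 3 genes.

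The first comparison asked how the RPE of aged mice differs from that of young mice. None of the 9 genes passed the test in Old against Young (edgeR quasi-likelihood test over all genes, Benjamini-Hochberg adjusted p under 0.05), where 5.40% of all genes tested were called higher and 4.16% lower. All 9 fitted log2 fold changes were negative, with a median of -0.45 beside -0.00 over all genes. Without Old replicate 4 the median was -0.24 (range -0.43 to 0.05, with Lrat positive), and without Old-Control replicate 2 as well it was -0.22, again with 0 called. Rpe65 differed by -0.61 ± 0.26 (log2, SE; adjusted p = 0.139), Rdh10 by -0.58 ± 0.32 (0.246), Rrh by -0.54 ± 0.25 (0.169) and Rdh11 by -0.49 ± 0.20 (0.11). Lrat differed by -0.04 ± 0.38 (adjusted p = 0.96). At an unadjusted p under 0.05 there were 3 members (Rpe65, Rdh11 and Rrh) and 4619 genes in all. No member had all Old libraries below all Young libraries, a pattern that 5.61% of genes showed. DESeq2 also called 0 of the 9. With only the Young and Old libraries without M, the median was -0.22 (range -0.46 to -0.03), again with 0 called. When M entered the model as a covariate, the members' log2 fold changes ran from -0.59 to -0.24, again with 0 called, and the letter in the name made no called difference within Young for any member (0 of 9, log2 0.01 to 0.48, where 0.0251% of genes were called higher and 0% lower).

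**Figure D2:**
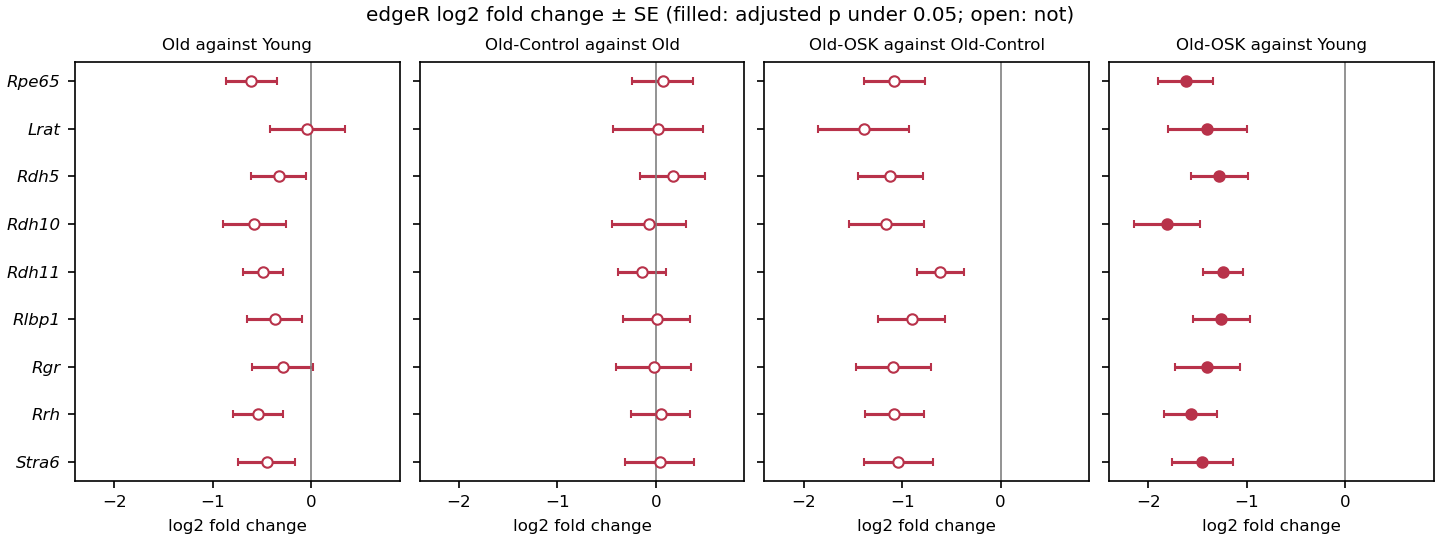
Log2 fold change of each visual cycle gene (horizontal axis) with its SE from edgeR in 4 comparisons (panels), with filled points for an adjusted p under 0.05. All 9 points are filled, between -1.81 and -1.24, in Old-OSK against Young, and none is filled in the other 3 panels.

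The vector alone was compared in Old-Control against Old. No member was called and no gene at all passed the test there (0% higher, 0% lower), with 596 genes at an unadjusted p under 0.05 and no member among them. Fitted log2 fold changes of the members lay between -0.14 (Rdh11) and 0.17 (Rdh5), with SEs from 0.24 to 0.46. Their signs changed with single libraries and with the scaling, so no direction is given. No member had its Old-Control libraries all below the Old libraries, against 0.928% of genes.

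The effect of adding OSK to the vector was compared in Old-OSK against Old-Control. The fitted levels of all 9 genes were lower with OSK, by a median log2 of -1.08 beside -0.03 over all genes, but none passed the test over all genes, where 0.408% were called higher and 0.320% lower. Lrat had the largest fitted difference at -1.39 ± 0.46 (log2, SE; adjusted p = 0.0945), with 1145 ± 440 CPM (SD, n = 4) in Old-OSK against 2992 ± 2772 (n = 3) in Old-Control. Rdh10 differed by -1.16 ± 0.38 (adjusted p = 0.0944), Rdh5 by -1.12 ± 0.33 (0.082), Rgr by -1.09 ± 0.38 (0.102), Rpe65 by -1.08 ± 0.31 (0.0789) and Rrh by -1.08 ± 0.30 (0.0745). Stra6 differed by -1.04 ± 0.35 (0.0963), Rlbp1 by -0.90 ± 0.34 (0.119) and Rdh11 by -0.61 ± 0.24 (0.127). At an unadjusted p under 0.05 there were all 9 members and 4194 genes in all. No member had all Old-OSK libraries below all Old-Control libraries, against 5.84% of genes, and the overlapping library was Old-Control replicate 2 for each of the 9. Between libraries of equal replicate number, all 9 genes were lower in Old-OSK in each of the 3 pairs, as were 24.5% of all genes.

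The outcome of that comparison turned on single libraries and on the tool. Without Old-Control replicate 2, all 9 genes were called lower, with log2 fold changes from -1.85 to -0.86 and adjusted p from 0.00448 to 0.0238, in a fit that called 11.6% of all genes lower. Without Old-Control replicate 1, none was called and the fold changes shrank to between -0.83 and -0.32 (adjusted p from 0.359 to 0.699), with Lrat moving most, from -1.39 to -0.32. Without Old-OSK replicate 4, Rpe65 and Rrh were called, where 5.31% of genes were called lower. Without both Old replicate 4 and Old-Control replicate 2 all 9 were called, where 14% of genes were called lower. DESeq2 on all libraries called 7 of the 9 (all but Rlbp1 and Rdh11), where it called 4.28% of genes lower. The sign was negative for every member in each of these fits.

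**Figure D3:**
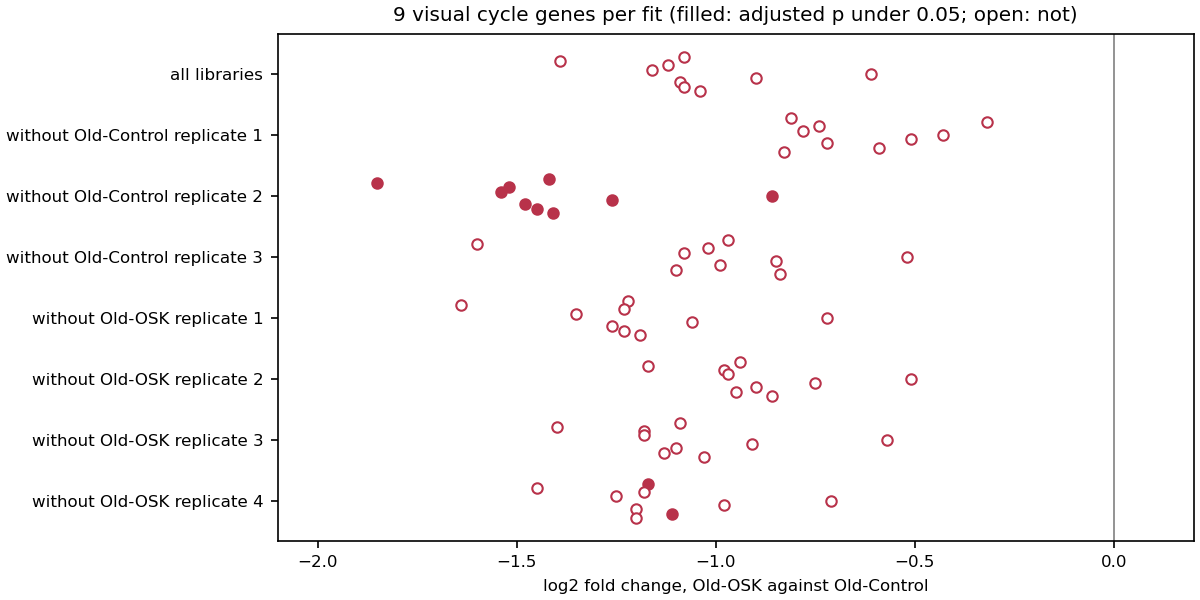
Log2 fold change in Old-OSK against Old-Control (horizontal axis) of the 9 visual cycle genes in the fit of all libraries and in the 7 fits that leave out 1 Old-Control or Old-OSK library (vertical axis), with filled points for an adjusted p under 0.05. All points lie below 0, and all 9 are filled only in the fit without Old-Control replicate 2.

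Against the 7 Young libraries, Old-OSK had lower levels of every visual cycle gene. All 9 were called lower in Old-OSK against Young, where 21.4% of all genes were called lower and 25.1% higher, and the median log2 fold change was -1.40 beside 0.06 over all genes. Rdh10 fell most, with a log2 fold change of -1.81 ± 0.34 (SE; adjusted p = 0.000734), from 3733 ± 746 CPM to 1062 ± 343. The log2 fold change was -1.62 ± 0.28 for Rpe65 (adjusted p = 0.000377), -1.57 ± 0.27 for Rrh (0.00035) and -1.45 ± 0.31 for Stra6 (0.00148). It was -1.40 ± 0.40 for Lrat (0.00928), -1.40 ± 0.33 for Rgr (0.00309), -1.28 ± 0.29 for Rdh5 (0.0023), -1.26 ± 0.29 for Rlbp1 (0.00286) and -1.24 ± 0.20 for Rdh11 (0.000292). All 4 Old-OSK libraries lay below all 7 Young libraries for each of the 9 genes, a pattern that 15.6% of genes showed. All 9 stayed called in every fit run for this comparison, including those without any 1 library. Age and the vector with OSK differ together in this comparison and cannot be told apart.

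The remaining pairs of groups share these libraries. In Old-OSK against Old, 0 of 9 passed (log2 -1.36 to -0.74, adjusted p from 0.107 to 0.193), where 0.652% of genes were called higher and 0.188% lower. All 9 members, and 2499 genes in all, had an unadjusted p under 0.05. DESeq2 called 4 of the 9, where 1.23% of genes were called lower. Without Old replicate 4, 6 were called where 3.62% of genes were, and without that library and Old-Control replicate 2, all 9 were called where 9.30% of genes were. In Old-Control against Young, 0 of 9 passed (log2 -0.65 to -0.02), where 4.58% of genes were called higher and 2.04% lower. Without Old-Control replicate 2 the range was -0.39 to 0.44 with 0 called, where 159 of 16114 genes were called higher and 82 lower. Without Old-Control replicate 1 it was -1.08 to -0.55 and only Rrh was called, where 957 of 16178 genes were called higher and 393 lower.

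Markers of the labelled cell type and of its neighbours were measured in the same libraries. The summed CPM of the 12 RPE markers, led by Enpp2 and Slc16a8, ranged from 11288 to 15421 in Young, 8809 to 11597 in Old, 5138 to 18250 in Old-Control and 4662 to 7693 in Old-OSK. In Old against Young, 2 of the 12 were called lower and 0 higher, beside 4.16% and 5.40% of all genes. There 11 of the 12 had a negative log2 fold change, with a median of -0.42 beside -0.45 for the visual cycle genes. In Old-OSK against Young, 9 of the 12 were called lower and 0 higher (median log2 -0.74, beside 21.4% and 25.1% of all genes). In Old-OSK against Old-Control none was called (median -0.43, beside 0.320% of all genes called lower and 0.408% higher). The summed CPM of 10 rod markers, Gnat1 among them, ranged from 157 to 3078 in Young, 2124 to 7685 in Old, 1624 to 19453 in Old-Control and 2911 to 16318 in Old-OSK, and all 10 were called higher in Old-OSK against Young (25.1% of all genes). Rod sums and visual cycle sums did not follow one order within Young, and Old replicate 3 held the lowest RPE marker sum of Old (8809) with its highest visual cycle sum (36595 CPM). Old-Control replicate 2, with the lowest visual cycle sum of its group (13584 CPM), held the highest rod sum (19453) and an RPE marker sum of 5138. Of 8 immune markers, led by Csf1r and Lyz2, 6 were called higher in Old against Young (5.40% of all genes), and 7 higher and 1 lower in Old-OSK against Young (25.1% and 21.4% of all genes), with sums of 467 to 671 CPM in Young, 621 to 1063 in Old, 763 to 1022 in Old-Control and 618 to 805 in Old-OSK. Summed Müller glia markers (led by Clu and Glul) ranged from 10527 to 12399 CPM in Young, 7752 to 10831 in Old, 8187 to 14177 in Old-Control and 7561 to 9013 in Old-OSK, where 1 of 6 was called lower against Young. Most of that sum was Clu (6098 to 9470 CPM in Young) and Glul (2251 to 2412). The highest Young sum was in replicate 5, which held the lowest rod sum (157). Which cells gave the Clu and Glul reads was not tested. Cone, endothelial, stromal, red blood cell and melanocyte markers summed to at most 575 CPM in any library, and in Old-OSK against Young, beside the same shares of all genes, 4 of 7 cone markers were called higher, 2 of 6 stromal and 2 of 5 melanocyte markers lower, and no endothelial or red blood cell marker either way. No gene of any of the 9 marker lists was at 0 throughout a group. In bulk RNA, fewer RPE cells and less RNA per RPE cell cannot be told apart, and the part of these markers in the visual cycle differences was not tested.

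The visual cycle sum divided by the RPE marker sum ran from 2.51 to 3.41 in Young and was 2.99, 3.16, 4.15 and 2.19 in Old. It was 2.63, 2.64 and 3.31 in Old-Control and 2.50, 1.94, 2.56 and 2.67 in Old-OSK. The groups overlapped. Old-OSK replicates 1 and 2 lay below the Young range and replicates 3 and 4 within it. Enpp2 weighed most in the RPE marker sum (mean 6012 CPM in Young) and differed by log2 -1.49 in Old-OSK against Old-Control. In that comparison 9 of the 12 markers had a negative log2 fold change. Tyrp1 (0.50), Trpm1 (0.46) and Best1 (0.35) were positive, and Krt8 stood at -0.01. The sum therefore does not stand for each marker, and a ratio without Enpp2 was not tested.

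**Figure D4:**
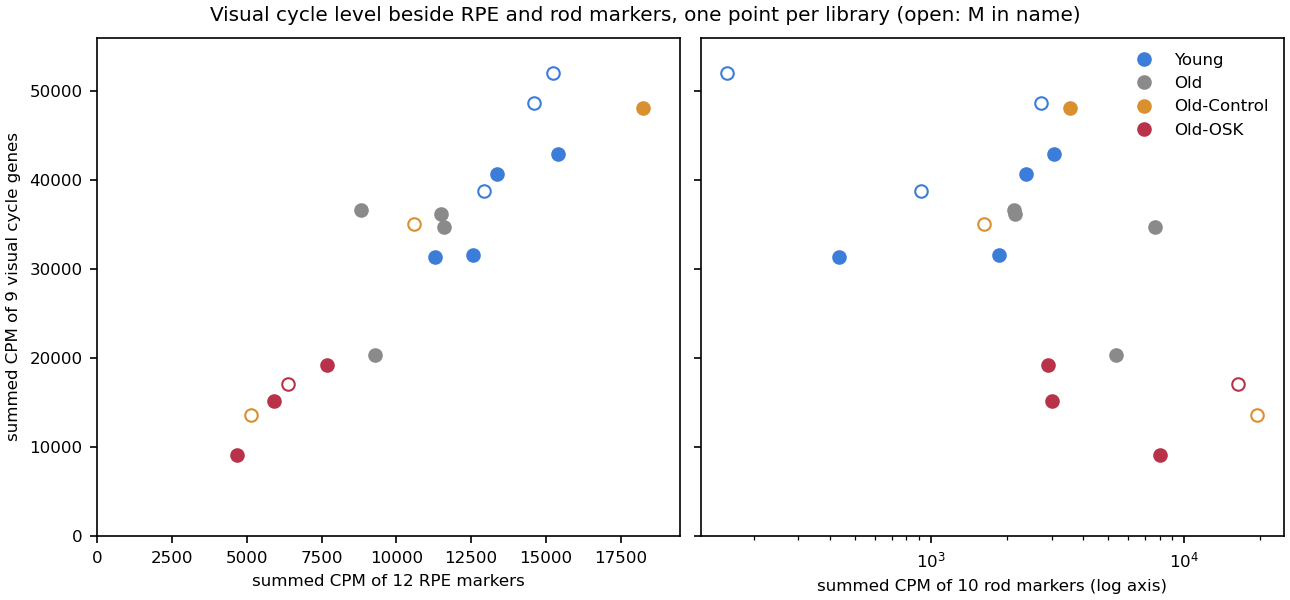
Summed CPM of the 9 visual cycle genes (vertical axis) against the summed CPM of 12 RPE markers (left, linear) and of 10 rod markers (right, log axis), with a point per library coloured by group and open for M in the name. The 4 Old-OSK libraries and Old-Control replicate 2 have RPE marker sums of at most 7693, below all others, and Old-Control replicate 2 and Old-OSK replicate 4 have the 2 highest rod sums.

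The 9 genes varied together from library to library, Lrat less closely than the others. Over the 18 libraries, Pearson correlations of log2 CPM between pairs of members had a median from 0.95 to 0.98 for each gene except Lrat, whose median was 0.89 (0.81 to 0.92). As deviations from the group means, the medians ran from 0.92 to 0.97, and Lrat again stood lowest at 0.83 (0.68 to 0.90). Within Young alone, pairs with Lrat ran from 0.27 (with Rdh11) to 0.71 (with Rpe65), and pairs without it from 0.78 to 0.99. Correlations without Old replicate 4 and Old-Control replicate 2 were not computed. The points share library composition and scaling, so these values are descriptions. The genes most like the mean of the members over the 18 libraries, of 10224 genes compared, were Car14 (r = 0.9966) and Car12 (0.9946), both carbonic anhydrases, Inpp5k (0.9941), a phosphoinositide phosphatase, Slc16a1 (0.9928), a monocarboxylate transporter, Col8a2 (0.9920), a collagen, and Tspan3 (0.9917), a tetraspanin. For Rlbp1 and Rgr, 3 and 4 genes outside the 9 had a higher correlation with that mean than they did, whereas for Lrat 584 genes did and for Rdh11 161. Each member is part of that mean and the outside genes are not. A member's own correlation is raised by this, so these ranks are descriptions only.

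Ratios between members within a library were also compared, a step chosen after the values had been seen. Of the 36 ratios, 15 differed between Old and Young at an unadjusted p under 0.05 (exact two-sided permutation test over all 330 assignments of the libraries), and 3 had groups that did not overlap. The shares among ratios of other gene pairs were not computed, so these counts cannot be called particular to the members. Lrat over Rpe65 was 0.449 to 0.71 in Young (median 0.575) and 0.89, 0.748, 0.757 and 1.1 in Old. Rgr over Rdh10 was 4.61 to 5.05 in Young (median 4.72) and 5.3, 6.23, 5.35 and 7.49 in Old. Rgr over Rrh was 36.3 to 41.1 in Young (median 39.5) and 48.1, 43.7, 52.5 and 41.5 in Old. In log2 terms the first of these differed by 0.59 (Rpe65 over Lrat, -0.59), the second by 0.34 (Rdh10 over Rgr, -0.34) and the third by 0.25, and each p was 0.00303, the smallest that 330 assignments can give. None of the 3 passed after adjustment over the 108 ratios of the 3 main comparisons (Old-Control against Old, Old against Young, and the 2 vector-treated groups), where the Benjamini-Hochberg adjusted p of the exact test was 0.109. The adjusted p was 0.0364 over the 36 ratios of Old against Young alone, and 0.0364 over all 144 ratios once Old-OSK against Young is counted too. So the call depends on which ratios are counted together.

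In the vector-treated libraries these ratios overlapped between Old-Control and Old-OSK. Lrat over Rpe65 was 1.24, 0.435 and 0.486 in Old-Control and 0.78, 0.483, 0.666 and 0.635 in Old-OSK, and replicate 1 of each group lay above the Young range. Rgr over Rdh10 was 5.98, 5.8 and 6.18 in Old-Control and 6.13, 6.36, 6.28 and 6.62 in Old-OSK, all above the Young range. In Old-OSK against Old-Control, 1 of 36 ratios had an unadjusted p under 0.05 (Rdh10 over Rlbp1, log2 -0.27, p = 0.0286 in the exact permutation test, the smallest that 35 assignments allow), and its adjusted p was 0.298 over the 108 ratios. In Old-Control against Old, 0 of 36 did. In Old-OSK against Young, 9 ratios did not overlap between the groups, and 5 of these 9 set Rdh10 against another member (exact permutation p = 0.00303 for each, adjusted p = 0.0121 over the 36 ratios and 0.0364 over all 144). Here too the share among ratios of other gene pairs was not computed. Rlbp1 over Rdh10 was 1.28 to 1.47 in Young against 1.93, 2.39, 1.99 and 2.01 in Old-OSK, and Rdh5 over Rdh10 was 0.849 to 1.02 against 1.16, 1.59, 1.44 and 1.26.

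**Figure D5:**
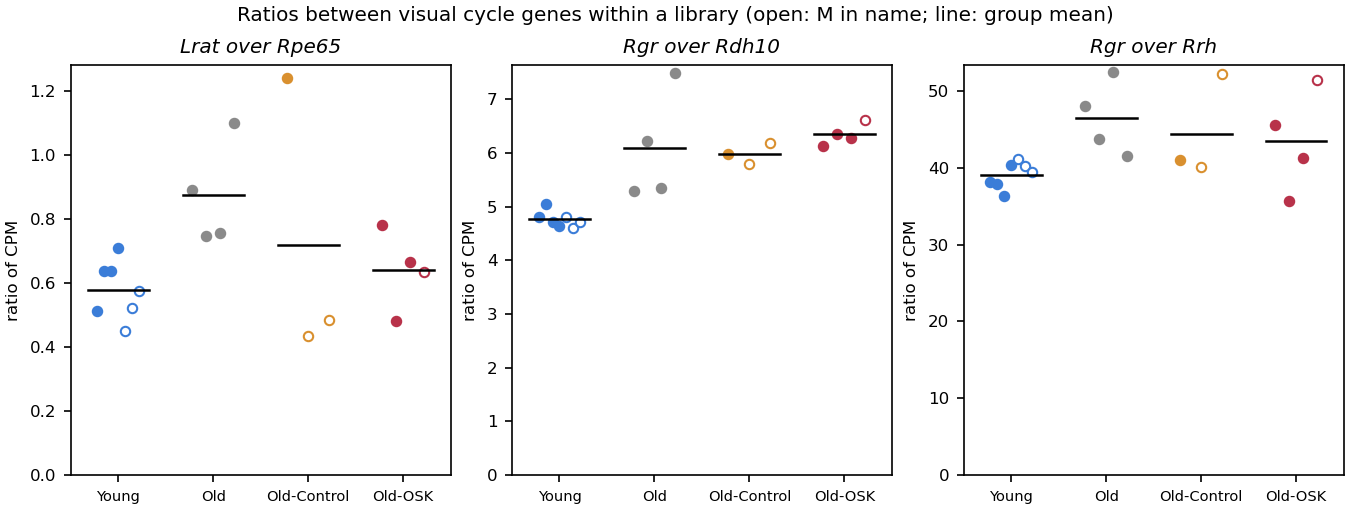
Ratio of CPM between pairs of visual cycle genes (vertical axis, linear from 0) within each library, by group (horizontal axis), with open points for M in the library name and a line at the group mean. The 4 Old points lie above the 7 Young points in all 3 panels, and the Old-Control and Old-OSK points lie above Young as a group only for Rgr over Rdh10.

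The wider set of retinoid-handling genes was a list of 20, of which 19 were tested. In Old against Young, 1 was called higher and 1 lower, shares near the 5.40% and 4.16% of all genes, and the median log2 fold change was -0.08. Stra6l, a relative of Stra6, rose by 1.63 ± 0.26 (log2, SE; adjusted p = 0.00177) from a low level of 0.802 ± 0.228 CPM (SD, n = 7) to 2.49 ± 1.01 (n = 4). Scarb1, a scavenger receptor that takes up carotenoids, fell (log2 -0.64 ± 0.17, adjusted p = 0.0343), from 175 ± 23.8 to 112 ± 25 CPM, with all 4 Old libraries (122, 132, 119 and 75.7) below the lowest Young library (146). Rdh16, a retinol dehydrogenase relative, had the next lowest p (log2 1.80 ± 0.61, adjusted p = 0.0686).

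In Old-OSK against Old-Control none of the 19 was called (median log2 -0.23), beside 0.408% of all genes called higher and 0.320% lower. Abca4, the retinaldehyde transporter of photoreceptor discs, had the lowest p at -0.68 ± 0.19 (adjusted p = 0.0723), with 537, 540, 553 and 889 CPM in Old-OSK and 1039, 825 and 1152 in Old-Control. Scarb1 differed by -0.63 ± 0.21 (adjusted p = 0.0945) and Stra6l by 0.97 ± 0.33 (0.0966). In Old-Control against Old none was called either (median 0.01), and the lowest p there belonged to Stra6l (log2 -0.63 ± 0.32, adjusted p = 0.9), Rdh16 (-1.10 ± 0.78, 0.9) and Rdh12 (0.85 ± 0.73, 0.903).

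In Old-OSK against Young, 5 of the 19 were called higher and 9 lower (median log2 -0.18), beside 25.1% and 21.4% of all genes, so that the share called higher was near that of all genes. On the side of uptake, carriage and storage, Scarb1 fell (log2 -1.11 ± 0.18, adjusted p = 0.000244), as did the transport protein Ttr (-0.72 ± 0.29, 0.049999) and the acyltransferase Dgat1 (-0.30 ± 0.12, 0.0471), while Stra6l rose by 1.97 ± 0.26 (5.9e-05). Among genes of the photoreceptor side, Rbp3, the retinoid carrier between photoreceptors and RPE, rose by 1.80 ± 0.71, Rdh8 by 2.04 ± 0.72 and Rdh12 by 1.86 ± 0.59, beside the rod markers that were called higher in the same comparison. Abca4, also on that list, fell (log2 -0.73 ± 0.16, adjusted p = 0.0018). Abca4 and the rod sum did not follow one order over the libraries. Abca4 stood at 1161 CPM in Young replicate 5, with the lowest rod sum (157). It stood at 825 CPM in Old-Control replicate 2, with the highest rod sum (19453). The other way round, Old-OSK replicate 4 held the highest Abca4 (889 CPM) and the highest rod sum (16318) of its group. So did Old replicate 1 in Old (1048 CPM and 7685). Which cells gave the Abca4 reads was not tested. Of further enzymes, Rdh16 rose by 2.21 ± 0.61 from 1.8 to 8.44 CPM, and Degs1, Retsat, Bco2 and Rdh14 fell, with log2 fold changes from -0.80 to -0.30.

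Of 6 transcription factors known in RPE cells, none was called in Old against Young (median log2 -0.20), in Old-OSK against Old-Control (-0.46) or in Old-Control against Old (0.07). Over all genes, 5.40% were called higher and 4.16% lower in the first, 0.408% and 0.320% in the second, and 0% in the third. In Old against Young the lowest p belonged to Otx2 (log2 -0.49 ± 0.21, adjusted p = 0.141), Mitf (-0.30 ± 0.14, 0.174) and Lhx2 (-0.26 ± 0.13, 0.195). In Old-OSK against Old-Control they belonged to Lhx2 (-0.66 ± 0.16, adjusted p = 0.0588), Mitf (-0.52 ± 0.17, 0.0924) and Otx2 (-0.76 ± 0.25, 0.0965). In Old-Control against Old they belonged to Crx (0.97 ± 0.91, adjusted p = 0.909), Pax6 (-0.55 ± 0.63, 0.931) and Otx2 (0.12 ± 0.26, 0.977). In Old-OSK against Young, Otx2 (log2 -1.13 ± 0.22, adjusted p = 0.000898), Lhx2 (-0.87 ± 0.13, 0.000185), Mitf (-0.74 ± 0.14, 0.000897) and Sox9 (-0.60 ± 0.21, 0.0245) fell, and Crx, which photoreceptors also express, rose by 2.00 ± 0.74 (0.0354). So 4 of the 6 were called lower and 1 higher, beside 21.4% and 25.1% of all genes.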

How the data were processed

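Polyadenylated RNA of mouse RPE in 18 libraries was extracted with TRIzol, and a SMART-Seq v4 kit and Nextera XT were used to make the libraries, per the labels' protocols. The authors deposited 1 table of raw read counts per gene. The submitters' processing notes name STAR 2.7.1a, featureCounts 1.6.2 and the build GRCm38 (mm10); annotation, strand setting and filters are not given in the sources used here. PCR copies were not separated by molecular identifiers, so counting error is a lower limit. All 18 columns matched library titles.

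Counts were filtered (filterByExpr, minimum count 10, minimum total 15), scaled by TMM and fitted with 4 group means over all 18 libraries in edgeR 4.0.16 (glmQLFit and glmQLFTest, R 4.3.3, 14 residual degrees of freedom). P-values were adjusted by Benjamini-Hochberg over 15944 genes and called under 0.05. CPM are edgeR values after TMM, and RPKM divide them by the exon length of GENCODE M21. The script was tested on simulated data. Ratios between members used Python 3.11.15, with exact permutation over libraries.

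The 9 members, the lists and the tests were chosen with earlier results of these data known. Named genes were all members, the called genes of the 2 lists or, with fewer than 3 called, the 3 with the lowest p, the 6 genes outside the members most correlated with their mean (mean log2 CPM of at least 3, prior count 2), and the 2 most abundant genes of a marker list; 2 genes that this rule names are not reported here. Alternatives were other scalings and filters, DESeq2 1.42.0, M as a covariate, the compared groups alone, a replicate block and leaving out each library. Old against Young was also fitted on the libraries without M only. Fits without Old replicate 4 and Old-Control replicate 2 together, the alternatives of the comparisons beyond the first 3, and the ratios were added after the data were seen. No replicate pair was close enough to be 1 library deposited again (the lowest chi-square per gene was 21.2).

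In Old-OSK and Old-Control, deviations of libraries with the same replicate number had r = 0.103, 0.421 and 0.339 across genes. Replicates 2 and 3 matched their own number best, but replicate 1 matched number 3. Replicates 2 and 3 carry M in Old-Control and not in Old-OSK. A pairing was assumed there for the replicate block, and the reported fit of group means did not use it. The pairing rests on this check only, and the block called 0 of the 9 members. For Old-Control and Old the same check gave r = 0.197, -0.189 and 0.359, and only replicate 3 matched its own number best. For Old and Young it gave -0.0497, -0.0191, 0.144 and -0.193, again with only replicate 3 matching itself best. No pairing was read from these values, and the remaining comparisons were not checked.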

Additional observations from a re-analysis of the deposited data

Results flagged for a closer look

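Each member was checked in the 3 groups with at least 4 libraries for a library far from the rest of its group, in 27 pairs of gene and group, and chance alone would mark about 1 in 20 of them. In Old, replicate 4 held the lowest level of Rlbp1, the carrier of cis-retinoids, at 2569 CPM, while the next lowest Old library held 4355 CPM, a gap of 0.906 of the group's range. The same library held the lowest level of Stra6, the retinol receptor, at 696 CPM against 1457 CPM in the next, a gap of 0.897 of the range. Old replicate 4 was also the lowest Old library for the other 7 members, without reaching that distance. In the same library the RPE markers summed to 9274 CPM and the rod markers to 5365 CPM, and Klf4 stood at 216 CPM. The part of these values in its low visual cycle level was not tested.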

How the results depend on the processing

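In the 3 main comparisons and in Old-OSK against Young, the number of visual cycle genes called stayed at the reported value under other scalings and filters. In Old-OSK against Old-Control, 0 were called lower with all libraries, 7 with DESeq2, 9 without both Old replicate 4 and Old-Control replicate 2, and 0 to 9 when each library was left out. In Old-OSK against Old the values were 0, 4, 9 and 0 to 6, and in Old-Control against Young 0 to 1 when each library was left out. The replicate block called 0 of 9 in Old-OSK against Old-Control (log2 -1.13 to -0.64, adjusted p from 0.068 to 0.237) and changed no other call of a member. Over all genes, the count called ranged from 0 (replicate block) to 2452 (DESeq2) in Old against Young and from 2 (the compared groups alone) to 3729 in Old-OSK against Old-Control, beside 861 higher and 663 lower, and 65 higher and 51 lower, in the reported fits. The cause of these shifts was not tested.

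In Old against Young and Old-Control against Old, signs turned only for members whose fitted difference with all libraries lay between -0.14 and 0.17. Signs also turned in Old-Control against Young when each library was left out. There Lrat ran from -1.08 to 0.44, Rdh5 from -0.55 to 0.23 and Rgr from -0.68 to 0.07. In Old against Young, Lrat was 0.06 with library totals only and 0.07 without Old replicate 4 and Old-Control replicate 2, and ran from -0.10 to 0.06 when each library was left out. In Old-Control against Old the replicate block gave -0.21 (Rpe65), -0.53 (Lrat), -0.14 (Rdh5), -0.31 (Rlbp1), -0.26 (Rrh) and -0.32 (Stra6), and the same libraries without the block -0.11 (Rpe65), -0.07 (Lrat), -0.16 (Rlbp1), -0.10 (Rrh) and -0.18 (Stra6). Library totals only gave -0.05 (Lrat), -0.04 (Rlbp1), -0.00 (Rrh) and -0.01 (Stra6), no low-count filter -0.01 (Rlbp1), and M as a covariate -0.03 (Rlbp1) and -0.09 (Stra6). Without both libraries Rdh10 was 0.05 and Rgr 0.17. When each library was left out, the values ran from -0.20 to 0.39 (Rpe65), -1.04 to 0.47 (Lrat), -0.21 to 0.55 (Rdh5), -0.45 to 0.29 (Rdh10), -0.31 to 0.10 (Rdh11), -0.38 to 0.36 (Rlbp1), -0.39 to 0.35 (Rgr), -0.44 to 0.40 (Rrh) and -0.18 to 0.39 (Stra6).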
